A study of Mus musculus with 4 samples.

Results

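Smooth muscle contractile genes, which give the outer muscle layer of the uterus its ability to shorten, were followed through RNA sequencing of whole mouse uterus on gestational day 4. The set is a list of 47 gene symbols, out of 57186 genes in the deposited count table. Symbols matched the deposited table for 46 of them, and Mrvi1 (ENSMUSG00000005611) was found by gene identifier under its newer symbol Irag1. All 47 passed the filter on low counts. Knockout mice carried Prss29Cre/Cre;Pgrf/f (Pgr gecKO), meaning Cre recombinase at both copies of the gland protease locus Prss29 and floxed copies of the progesterone receptor gene Pgr. Control mice were labelled as wild type, and each group had 2 libraries. Cre is driven from a gene of the gland epithelium, so the muscle layer is not the tissue the deletion is aimed at, and Cre, the altered Prss29 locus and the loss of Pgr cannot be told apart as sources of a difference. The labels give no age or strain, and they do not say whether each library came from a separate animal.

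Myometrial cells contract when calcium enters through L-type channels or leaves the sarcoplasmic reticulum, binds calmodulin and activates myosin light chain kinase, which phosphorylates the regulatory light chain so that myosin pulls on actin. Oxytocin and acetylcholine receptors raise calcium, whereas large-conductance potassium channels and cyclic GMP signalling favour relaxation. Most contractile genes are transcribed under serum response factor and its partner myocardin, which act through CArG boxes in promoters and introns. Progesterone favours a quiet muscle during pregnancy, and contraction-associated genes such as the oxytocin receptor gene are known to rise near term. RNA counts do not show how active the muscle was on gestational day 4.

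Library totals ran from 29932153 to 31901278 counts in the knockout group and from 33843256 to 35149834 counts in the control group. Values are given in CPM, counts scaled to the TMM-adjusted size of the library, for comparison between libraries, and in the authors' TPM, which divide by gene length, for comparison between genes. Pgr stood at 130.1 and 146 CPM in knockout libraries 1 and 2, against 140.5 and 139 CPM in control libraries 1 and 2. A whole-gene count in a tissue whose stroma and muscle also transcribe Pgr does not check a deletion in glands. Prss29 had 0 and 0 counts in the knockouts, against 1524 and 190 counts in the controls.

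Contractile RNA was lowest by far in control library 2. The members together took 1.74% and 2.25% of all counts in knockout libraries 1 and 2, against 1.93% and 0.892% in control libraries 1 and 2. For the largest share the exact binomial 95% interval, which covers counting error only, was 2.24% to 2.25%. Summed over the members, the level was 16736 and 23986 CPM in the knockouts and 19495 and 8601 CPM in the controls, so that the knockout mean was 1.45 times the control mean. Control 1 held 2.27 times the summed level of control 2, and it lay between the 2 knockouts. Without control 2 the ratio of knockout to control was 1.04, and without control 1 it was 2.37. In whole tissue, fewer muscle cells and less RNA per muscle cell cannot be told apart.

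Control 2 was the lowest of the 4 libraries for 42 of 47 members, beside 24.2% of all 20950 genes tested. Knockout 2 was the highest for 35 members and control 1 for 6, and 25 members held the full order of the summed level, with knockout 2 highest, then control 1, knockout 1 and control 2. The exceptions at the low end were Actn1 and Kcnma1, lowest in knockout 1, and Itga8, Dtna and Ryr2, lowest in control 1. On the log2 CPM scale the median member was 0.96 higher in control 1 than in control 2 and 0.42 higher in knockout 2 than in knockout 1, whereas the median over all genes tested was −0.00045 and −0.022. Control 1 exceeded control 2 by at least 2-fold for 22 members, and knockout 2 exceeded knockout 1 by that much for 3, Synm, Csrp1 and Oxtr.

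**Figure D1:**
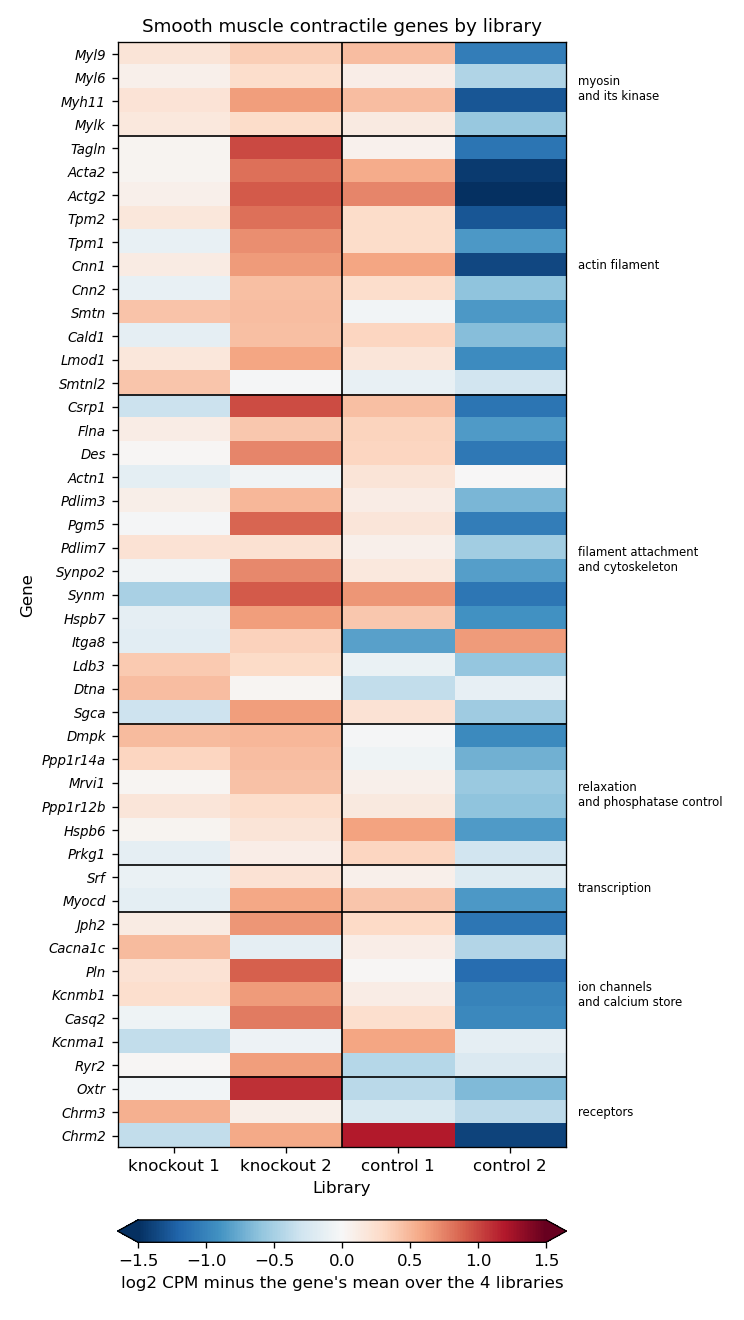
Level of each of the 47 smooth muscle genes (rows, grouped by role) in each library (columns), as log2 CPM minus the gene's mean over the 4 libraries. Red is above and blue below that mean. Control 2 is the lowest library for 42 genes and knockout 2 the highest for 35.

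No member differed between knockout and control when p was adjusted over all genes. In edgeR's quasi-likelihood test 0 of 47 members were called higher and 0 lower (Benjamini-Hochberg adjusted p 0.99998 for every member), against a background of 0.00477% and 0.0% of all genes, and DESeq2 and limma-voom likewise called 0. An unadjusted p under 0.05 was found for 4 members, all higher in the knockout, and for 3.01% of all genes. These were Ppp1r14a, Oxtr, Smtn and Dmpk. The number of members with an unadjusted p under 0.05 depended on single libraries: it was 24 without control 1, 9 without knockout 1, and 0 without control 2 or without knockout 2. The log2 fold change was above 0 for 43 members, compared with 51.1% of all genes, and its median was 0.50 beside 0.0063 over all genes. Without control 2 the median was 0.094 with 30 members above 0, without knockout 2 it was 0.25 with 34, and without control 1 it was 1.13. For 38 members the 2 controls differed from each other by more than the fold change between the groups.

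Both knockout libraries lay above both controls for 14 members and below both for 1. Across all genes tested these arrangements were found for 12.2% and 13.1%. Control 2 was the lowest library for 42 of the 47 members, beside 24.2% of all genes tested. For a gene lowest in control 2, the first arrangement needs only control 1 to lie below both knockouts. The 12.2% thus cannot show whether 14 members above are an excess. The 14 were Mylk, Smtn, Smtnl2, Pdlim7, Ldb3, Dtna, Ppp1r12b, Ppp1r14a, Dmpk, Kcnmb1, Ryr2, Pln, Oxtr and Chrm3, and the 1 below was Actn1. Myh11, Acta2, Actg2, Cnn1 and Des, which encode major structural proteins of muscle, were not among the 14, since control 1 exceeded knockout 1 for each of them.

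**Figure D2:**
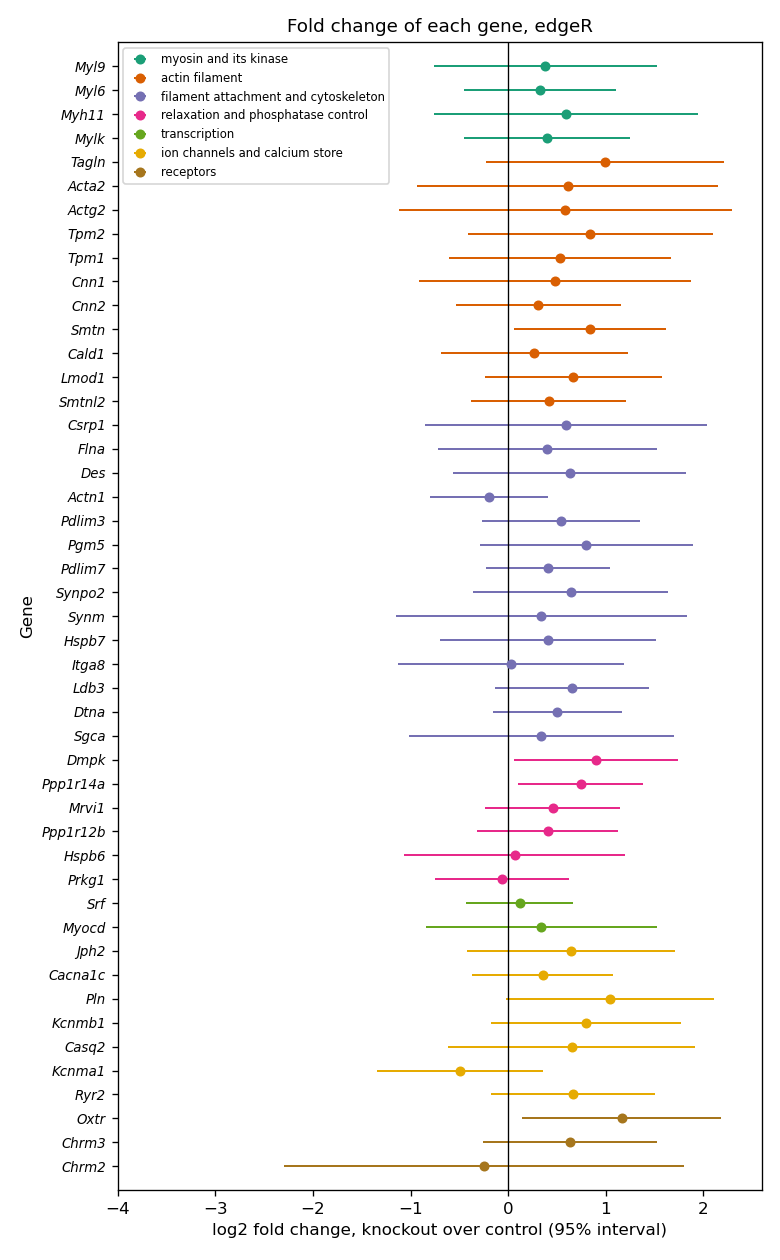
Log2 fold change of each of the 47 genes, knockout over control, from edgeR (points) with 95% intervals (bars), coloured by role. The intervals of 4 genes, Smtn, Dmpk, Ppp1r14a and Oxtr, lie above 0, and 43 of the points are above 0.

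The oxytocin receptor gene had the largest fold change of the set in edgeR, while Pln exceeded it with limma-voom, on both log2 TPM scales and with the replicate block, and other members did without control 1 and without knockout 2. Oxtr (ENSMUSG00000049112), whose product couples oxytocin to calcium release, had 8.74 and 19.2 CPM in the knockout libraries, against 6.79 and 5.67 CPM in the control libraries. Both knockouts were above both controls, but knockout 2 was 2.20 times knockout 1 whereas the controls were close together. The log2 fold change of Oxtr was 1.16 (SE 0.43, 95% interval 0.14 to 2.18, unadjusted p = 0.0313 in edgeR). Its raw counts were 289 and 538 in the knockouts and 236 and 199 in the controls. Without knockout 2 its log2 fold change was 0.49, and without knockout 1 it was 1.62, with adjusted p of 0.9999 and 0.217. In TPM, Oxtr averaged 8.75 TPM in the knockouts and 4.17 TPM in the controls, a low level beside the structural genes.

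The muscarinic receptor genes were scarce. Chrm3, the acetylcholine receptor that raises calcium, had 6.32 and 4.67 CPM in the knockout libraries, against 3.74 and 3.33 CPM in the control libraries, with both knockouts above both controls. For Chrm3 the log2 fold change was 0.64 (SE 0.37, 95% interval −0.26 to 1.53, unadjusted p = 0.136 in edgeR). Chrm2, which encodes the inhibitory muscarinic receptor, had 0.635 and 1.21 CPM in the knockout libraries, against 1.87 and 0.313 CPM in the control libraries, from counts of 21 and 34 in the knockouts and 65 and 11 in the controls. Control 1 was its highest library and control 2 its lowest, so the groups overlapped. Its log2 fold change was −0.25 (SE 0.86), and 5 of the alternatives described in the closing section turned it positive.

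Ion channels fell on both sides of 0. Cacna1c, the pore of the L-type calcium channel through which calcium enters at each contraction, had 193 and 127 CPM in the knockout libraries, against 148 and 102 CPM in the control libraries. Its highest library was knockout 1, unlike that of most members, and its groups overlapped. Knockout over control, Cacna1c had a log2 fold change of 0.35 (SE 0.30, 95% interval −0.37 to 1.08, unadjusted p = 0.282 in edgeR). Kcnma1 (ENSMUSG00000063142), the pore of the large-conductance calcium-activated potassium channel, had 7.38 and 9.05 CPM in the knockout libraries, against 14.4 and 8.69 CPM in the control libraries. Its knockout mean was below its control mean, with the highest value in control 1 and overlapping groups. Kcnma1 thus had a log2 fold change of −0.49 (SE 0.36, 95% interval −1.35 to 0.36, unadjusted p = 0.213 in edgeR). Kcnmb1, the smooth muscle subunit that makes the same channel more sensitive to calcium, had 16.8 and 22.0 CPM in the knockout libraries, against 15.3 and 7.07 CPM in the control libraries. Both of its knockout values were above both control values, and the log2 fold change was 0.80 (SE 0.41). The pore and its smooth muscle subunit thus had fold changes of opposite sign, and neither 95% interval excluded 0 (−1.35 to 0.36 for Kcnma1 and −0.17 to 1.77 for Kcnmb1).

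All 4 genes of the calcium store had a higher mean in the knockout, and none passed the test. Pln, which encodes phospholamban, the brake on the calcium pump of the sarcoplasmic reticulum, had 14.3 and 22.8 CPM in the knockout libraries, against 12.5 and 5.59 CPM in the control libraries. The groups did not overlap, and control 1 was 2.23 times control 2. Its exons lie opposite those of Cep85l in the annotation, and no strand setting is given for the counting. The log2 fold change of Pln was 1.04 (SE 0.45, 95% interval −0.027 to 2.11, unadjusted p = 0.0545 in edgeR). Ryr2, a calcium release channel of the store, had 7.65 and 11.7 CPM in the knockout libraries, against 5.64 and 6.53 CPM in the control libraries, again without overlap. It was one of the few members in which the 2 controls were close and control 1 was the lower. Casq2, the calcium-binding protein of the store, had 4.08 and 7.38 CPM in the knockout libraries, against 5.09 and 2.19 CPM in the control libraries. Jph2, which holds the store against the cell membrane, had 100.6 and 147 CPM in the knockout libraries, against 114 and 43.7 CPM in the control libraries. For Casq2 and Jph2 control 1 lay between the knockouts and control 2 far below all others. The log2 fold changes were 0.67 for Ryr2, 0.65 for Casq2 and 0.65 for Jph2, with standard errors of 0.35, 0.53 and 0.45. All 4 genes are also transcribed in heart muscle and were highest in knockout 2, the library in which several heart muscle markers stood out. Myh6, the heart myosin heavy chain, had 0.181 and 36.2 CPM in the knockout libraries, against 0.345 and 0.313 CPM in the control libraries. Without knockout 2, the log2 fold changes were 0.67 for Pln, 0.33 for Ryr2, 0.17 for Casq2 and 0.35 for Jph2. The part of heart RNA in these values was not tested. Nor was it tested for the other members highest in knockout 2, among them Des and Synm.

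**Figure D3:**
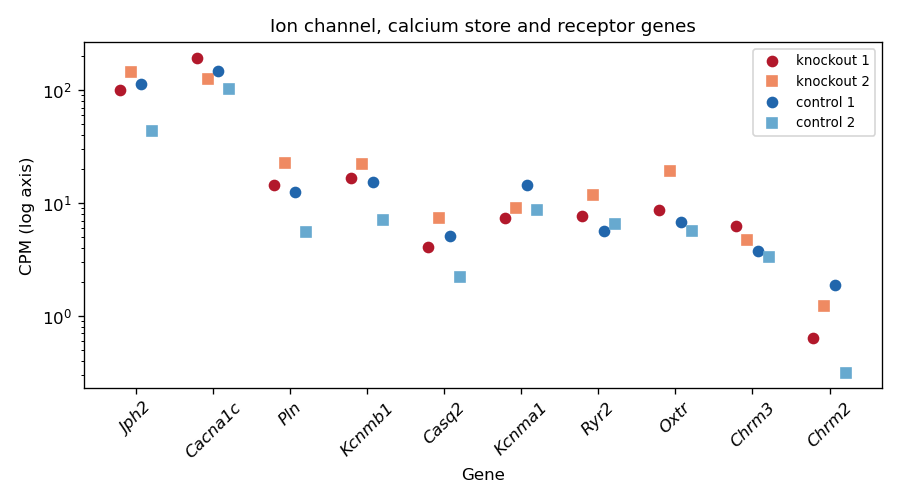
CPM (log axis) of 7 ion channel and calcium store genes and 3 receptor genes in each library; circles are replicate 1 and squares replicate 2, red tones knockout and blue tones control. Knockout 2 stands alone at the top for Oxtr, at 19.2 CPM, while Kcnma1 is highest in control 1 at 14.4 CPM.

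Of the 6 members grouped under relaxation and phosphatase control, 2 had an unadjusted p under 0.05 in edgeR, Ppp1r14a and Dmpk. Over all genes tested that share was 3.01%. Ppp1r14a encodes CPI-17, an inhibitor of myosin phosphatase, and had 72.6 and 80.1 CPM in the knockout libraries, against 55.7 and 35.3 CPM in the control libraries. For Ppp1r14a the log2 fold change was 0.75 (SE 0.27, 95% interval 0.10 to 1.39, unadjusted p = 0.0286 in edgeR). Dmpk, the myotonic dystrophy protein kinase, had 435 and 441 CPM in the knockout libraries, against 309 and 161 CPM in the control libraries. For both genes the knockouts were close to each other and above both controls. Knockout over control, Dmpk had a log2 fold change of 0.90 (SE 0.35, 95% interval 0.060 to 1.74, unadjusted p = 0.0391 in edgeR). Ppp1r12b, a targeting subunit of myosin phosphatase, had 234 and 248 CPM in the knockout libraries, against 229 and 136 CPM in the control libraries, with no overlap. Its log2 fold change was 0.40 (SE 0.30, unadjusted p = 0.225 in edgeR). Without control 2, the log2 fold changes of Ppp1r14a and Dmpk were 0.45 and 0.50.

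Of 3 members linked to cyclic GMP relaxation, none had both knockouts above both controls. That arrangement was found for 12.2% of all genes tested, so its absence in 3 genes does not set them apart. Prkg1, the cyclic GMP-dependent kinase, had 22.0 and 25.9 CPM in the knockout libraries, against 30.2 and 19.8 CPM in the control libraries. Control 1 was its highest library and control 2 its lowest, and its log2 fold change was −0.059 (SE 0.29). Mrvi1, a partner of that kinase at the inositol trisphosphate receptor, had 124 and 165 CPM in the knockout libraries, against 128 and 83.0 CPM in the control libraries. Hspb6, a small heat shock protein phosphorylated during relaxation, had 11.6 and 12.8 CPM in the knockout libraries, against 17.1 and 6.24 CPM in the control libraries. Its groups overlapped, with control 1 highest, and its log2 fold change was 0.066 (SE 0.47). For Mrvi1 knockout 2 was highest and control 2 lowest, and its log2 fold change was 0.45 (SE 0.29).

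Myosin genes were among the most abundant members, and none passed the test. Myl9, the regulatory light chain that the kinase phosphorylates, averaged 1576 TPM in the knockouts and 1261 TPM in the controls, and Myl6, the essential light chain, 1020.3 TPM in the knockouts and 849.7 TPM in the controls. Myl9 had 559.6 and 633 CPM in the knockout libraries, against 677 and 239 CPM in the control libraries. Control 1 was its highest library, 2.84 times control 2. Myl6, which many cell types transcribe, had 991 and 1127 CPM in the knockout libraries, against 1005 and 685 CPM in the control libraries, with control 1 only 1.47 times control 2. Myh11 (ENSMUSG00000018830), the smooth muscle myosin heavy chain, had 1544 and 2070.4 CPM in the knockout libraries, against 1848 and 551 CPM in the control libraries. Control 1 lay between the knockouts and was 3.35 times control 2. Myh11 thus had a log2 fold change of 0.59 (SE 0.57, 95% interval −0.76 to 1.95, unadjusted p = 0.335 in edgeR). Without control 2 the log2 fold change of Myh11 was −0.033. Mylk, myosin light chain kinase, had 1342 and 1461 CPM in the knockout libraries, against 1321 and 811 CPM in the control libraries, so its groups did not overlap, though knockout 1 exceeded control 1 by a small margin. The log2 fold change of Mylk was 0.40 (SE 0.36).

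Actin filament genes held the most abundant members. Tagln, the actin-bundling protein SM22, averaged 2977 TPM in the knockouts and 1593 TPM in the controls and had 1342 and 2585 CPM in the knockout libraries, against 1365 and 613 CPM in the control libraries. Knockout 2 stood above the rest, control 2 below, and knockout 1 and control 1 were level. The log2 fold change of Tagln was 0.99 (SE 0.51, 95% interval −0.23 to 2.21, unadjusted p = 0.0959 in edgeR). Acta2 (ENSMUSG00000035783), smooth muscle alpha actin, averaged 2619 TPM in the knockouts and 1816 TPM in the controls and had 1396 and 2406 CPM in the knockout libraries, against 1991 and 500.4 CPM in the control libraries. Its groups overlapped, since control 1 lay between the knockouts, while control 2 was far below both. For Acta2 the log2 fold change was 0.61 (SE 0.65, 95% interval −0.93 to 2.15, unadjusted p = 0.378 in edgeR). Without control 2 the log2 fold change of Acta2 was −0.068. Actg2, the enteric gamma actin, had 297 and 535 CPM in the knockout libraries, against 468 and 85.2 CPM in the control libraries, and its control 1 was 5.50 times control 2. Smtn, the filament-binding smoothelin, had 413 and 421 CPM in the knockout libraries, against 297 and 169 CPM in the control libraries. Its knockouts were level and above both controls. Knockout over control, Smtn had a log2 fold change of 0.84 (SE 0.33, 95% interval 0.059 to 1.62, unadjusted p = 0.0385 in edgeR).

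The other actin-binding genes were also lowest in control 2, and all but Smtnl2, which was highest in knockout 1, were highest in knockout 2. The calponin genes Cnn1 and Cnn2, which restrain actin-activated myosin, had log2 fold changes of 0.48 and 0.31, and control 1 exceeded control 2 by 3.88 and 1.82 times. Tropomyosin genes Tpm1 and Tpm2, whose products line the actin groove, had log2 fold changes of 0.53 and 0.84. Caldesmon (Cald1), leiomodin (Lmod1) and smoothelin-like 2 (Smtnl2) had 0.27, 0.67 and 0.42. All 11 genes of the actin group had a fold change above 0, with a median log2 value of 0.59, and control 2 was the lowest library for all 11. The actins, tropomyosins and light chains are close in sequence to other family members, and whether reads with several matches were counted is not given, so their levels are uncertain. The skeletal actin gene Acta1 had 52.7 and 121 CPM in the knockout libraries, against 95.1 and 14.5 CPM in the control libraries and followed the same order of libraries as Acta2. In GENCODE vM21 (GRCm38), exons of 14 members are overlapped by a gene on the opposite strand, among them Tagln by Pcsk7, Synm by Ttc23 and Hspb6 by Lin37, and their counts may hold reads of both.

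Genes that anchor filaments to the membrane and to each other were split between those that were lowest in control 2 and those that were not. Csrp1, a LIM protein of actin bundles, averaged 1491 TPM in the knockouts and 1058 TPM in the controls and had 563 and 1386 CPM in the knockout libraries, against 962 and 331 CPM in the control libraries. Flna, the actin crosslinker filamin A, averaged 881 TPM in the knockouts and 698 TPM in the controls and had 2443 and 3001 CPM in the knockout libraries, against 2866 and 1257 CPM in the control libraries. In both genes the groups overlapped and control 2 was lowest. The intermediate filament genes Des (desmin) and Synm (synemin) had 604 and 990.2 CPM in the knockout libraries, against 746 and 283 CPM in the control libraries for Des and 54.3 and 144 CPM in the knockout libraries, against 121 and 35.9 CPM in the control libraries for Synm. Synm was higher in knockout 2 than in knockout 1 by 2.65 times, the widest gap between the knockouts in the set. Log2 fold changes were 0.59, 0.40, 0.63 and 0.34 for these 4 genes, with standard errors of 0.61, 0.47, 0.50 and 0.63.

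Actn1 and Itga8 stood apart. Actn1, the alpha-actinin of non-muscle and smooth muscle cells, had 366 and 388 CPM in the knockout libraries, against 459 and 405 CPM in the control libraries, and both knockouts lay below both controls by a small amount. Actn1 thus had a log2 fold change of −0.20 (SE 0.25, 95% interval −0.80 to 0.41, unadjusted p = 0.462 in edgeR). Itga8, an integrin subunit that binds the matrix around smooth muscle, had 11.9 and 17.0 CPM in the knockout libraries, against 7.57 and 20.7 CPM in the control libraries. Control 2 was its highest library and control 1 its lowest, so the controls stood in the opposite order to that of most members. The actin-associated genes Synpo2 (synaptopodin 2), Pdlim3, Pdlim7 and Ldb3 (PDZ and LIM domain proteins) had log2 fold changes of 0.64, 0.54, 0.41 and 0.65. Pgm5, an adherens junction protein related to phosphoglucomutase, and the dystrophin complex genes Dtna and Sgca had 0.80, 0.50 and 0.34, and the small heat shock gene Hspb7 had 0.41. Of these 8, the lowest level was that of Sgca, with counts of 35 and 57 in the knockouts and 53 and 32 in the controls.

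Neither transcription factor gene passed the test. Srf, serum response factor, had 103 and 128 CPM in the knockout libraries, against 116 and 96.4 CPM in the control libraries. Control 1 lay between the knockouts, and the 4 libraries were closer together than for most contractile genes. The log2 fold change of Srf was 0.12 (SE 0.23, 95% interval −0.43 to 0.66, unadjusted p = 0.629 in edgeR). Myocd, the muscle-restricted coactivator, had 6.77 and 11.2 CPM in the knockout libraries, against 10.02 and 4.13 CPM in the control libraries. Control 1 was 2.42 times control 2, and the groups overlapped. Its log2 fold change was 0.34 (SE 0.50), and both genes had values below 0 without control 2 and without knockout 2.

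Because serum response factor binds the CArG box, promoter windows of the members were searched for it. The motif reads as a CArG box from either strand, so each match covers both. RefSeq windows of build GRCm38.p6, each 300 bases long with 250 before and 50 after the transcript start, were matched by symbol for 42 members, in 53 windows. An exact CArG box lay in 6 of these windows, or 11.3%, belonging to 5 genes, and in 1.63% of all 32851 windows. With 1 mismatch allowed in the central 6 A or T bases, the shares were 26.4% and 9.98%. The genes with an exact box were Myl9, Cnn2, Myl6, Ldb3 and Srf. The 200 bases before the start are shown for 4 of them, 5′ to 3′ on the coding strand with each box in capitals, because these windows place the element beside genes whose controls differed to different degrees.
Srf: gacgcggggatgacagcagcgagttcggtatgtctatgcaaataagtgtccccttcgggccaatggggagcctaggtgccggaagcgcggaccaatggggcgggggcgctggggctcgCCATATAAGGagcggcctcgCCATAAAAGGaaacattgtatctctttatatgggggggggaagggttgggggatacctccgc
Myl9: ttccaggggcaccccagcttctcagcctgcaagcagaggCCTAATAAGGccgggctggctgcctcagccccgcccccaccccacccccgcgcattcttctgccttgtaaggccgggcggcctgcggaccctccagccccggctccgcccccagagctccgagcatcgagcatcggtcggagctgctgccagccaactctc
Cnn2: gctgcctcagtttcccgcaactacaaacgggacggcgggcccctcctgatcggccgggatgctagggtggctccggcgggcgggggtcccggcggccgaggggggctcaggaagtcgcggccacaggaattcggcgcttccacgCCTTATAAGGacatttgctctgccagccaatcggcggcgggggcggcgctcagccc
Myl6: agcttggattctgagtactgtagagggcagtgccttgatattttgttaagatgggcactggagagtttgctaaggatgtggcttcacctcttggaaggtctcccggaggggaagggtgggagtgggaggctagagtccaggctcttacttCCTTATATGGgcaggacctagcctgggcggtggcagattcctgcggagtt
The Srf window, on the minus strand at chr17:46556163-46556362, holds 2 boxes, which begin 82 and 62 bases before the start. In Myl9 (chr2:156775264-156775463, plus strand) the box begins 161 bases before the start, in Cnn2 (chr10:79988400-79988599, plus strand) 56 and in Myl6 (chr10:128493010-128493209, minus strand) 50. Control 1 over control 2 was 2.84 for Myl9, 1.82 for Cnn2, 1.47 for Myl6 and 1.21 for Srf, within a range over all members of 0.366 for Itga8 to 5.97 for Chrm2. A match is a description of the letters and not evidence of binding in these samples.

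To see which genes followed the shared level of contractile RNA, each member was divided, within each library, by the geometric mean of Myh11, Cnn1, Des, Lmod1 and Synm, called the contractile core here. This core stood at 267 and 433 CPM in the knockouts, against 363 and 120.1 CPM in the controls. Relative to it, both knockouts lay above both controls for 2 of the 42 members outside the core, Tpm2 and Pln, and below both for 6, Kcnma1, Prkg1, Hspb6, Cald1, Myocd and Hspb7. Over all genes tested, divided by the same core, these arrangements were found for 0.563% and 13.9%, so the share of members below was near that of all genes. A gene level across the libraries has its highest ratio in control 2, where the core was lowest. The divisor thus holds down the 0.563%, which cannot show whether 2 members above are an excess. With Myh11 alone as the divisor, 0 members lay above and 7 below, since Tpm2, Pln and Hspb7 then overlapped and Myl9 and Actn1 did not. Myh11 too was lowest in control 2, and the share of all genes was not computed for this divisor. Whether the 7 differ from genes at large was therefore not tested. For Kcnma1 the log2 ratio to the core was −5.18 and −5.58 in the knockouts, against −4.65 and −3.79 in the controls. Prkg1 had −3.60 and −4.06 in the knockouts, against −3.59 and −2.60 in the controls. The knockout minus control difference in this log2 ratio was −1.16 for Kcnma1, −0.90 for Actn1 and −0.74 for Prkg1, the lowest in the set, and 0.41, 0.36 and 0.32 for Pln, Oxtr and Tagln, the highest.

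Oxtr relative to the core overlapped between the groups, at −4.93 and −4.50 in the knockouts, against −5.74 and −4.40 in the controls. Its highest ratio was in control 2, the library with the least contractile RNA, and its lowest in control 1. The gap in Oxtr ratio between the 2 controls exceeded the difference of the group means, 0.36. Genes at the low end, Kcnma1, Actn1, Prkg1 and Srf, had their highest ratio to the core in control 2. The core was lowest in that library, so any gene level in CPM has its highest ratio there. These ratios carry no test.

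**Figure D4:**
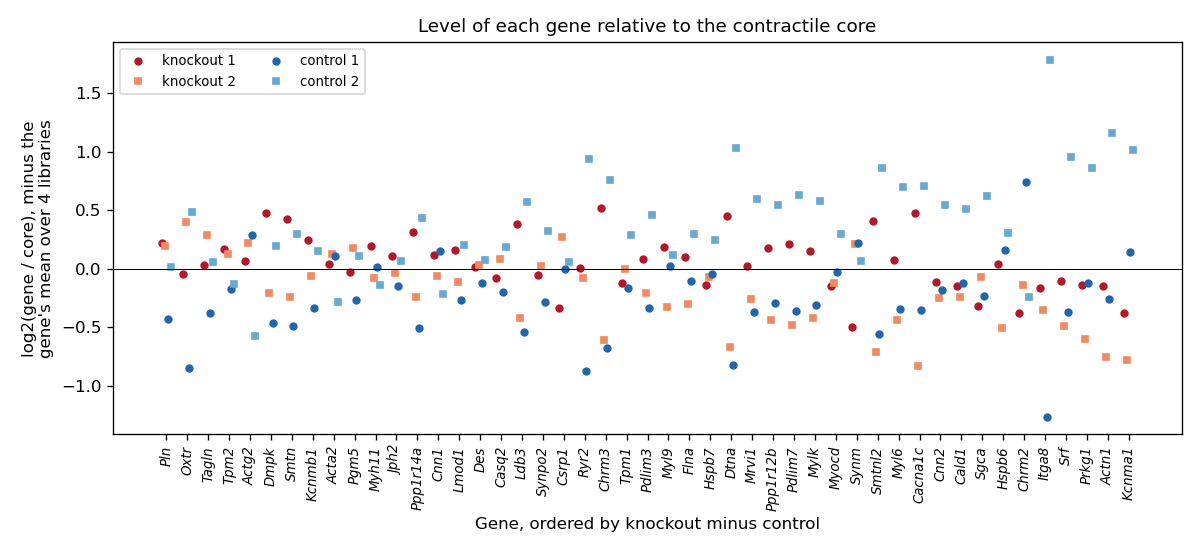
Log2 ratio of each gene to the contractile core in each library, centred on the gene's mean over the 4 libraries, with genes ordered by knockout minus control; the 5 core genes are included. Pln and Kcnma1 stand at the ends with differences of 0.41 and −1.16, and control 2 is the highest library for most genes on the right. The core itself was lowest in control 2.

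Per gene length, the members spanned a wide range of levels. In the authors' TPM, 22 members averaged over 100 and 8 under 5 across the 4 libraries. Tagln, Acta2, Myl9 and Csrp1 led, at group means of 2977 TPM in the knockouts and 1593 TPM in the controls for Tagln and 2619 TPM in the knockouts and 1816 TPM in the controls for Acta2. At the low end Chrm2 averaged 0.460 TPM in the knockouts and 0.578 TPM in the controls and Ryr2 1.02 TPM in the knockouts and 0.678 TPM in the controls. The potassium channel pore Kcnma1 averaged 1.48 TPM in the knockouts and 2.18 TPM in the controls, below its subunit Kcnmb1 at 14.2 TPM in the knockouts and 8.53 TPM in the controls. The calcium channel pore Cacna1c averaged 22.9 TPM in the knockouts and 18.3 TPM in the controls, above both.

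Of 50 further genes of the contraction pathway, from receptors and G proteins to focal adhesion proteins, 49 passed the low-count filter and 0 were called in either direction by edgeR, DESeq2 or limma-voom. An unadjusted p under 0.05 in edgeR was found for 1 of them, Pde5a, and for 3.01% of all genes tested. Their median log2 fold change was 0.056, beside 0.0063 over all genes, and 31 were above 0, compared with 51.1% of all genes. Control 2 was the lowest library for 30 of the 49, beside 24.2% of all genes tested. Pde5a, which breaks down cyclic GMP, had 118 and 139 CPM in the knockout libraries, against 96.2 and 75.2 CPM in the control libraries, a log2 fold change of 0.59 (SE 0.23) with no overlap. The prostaglandin receptor genes Ptgfr and Ptger3 had log2 fold changes of 0.56 and 0.42, with standard errors of 0.31 and 0.26. Gja1, the gap junction gene that couples muscle cells at term and is also transcribed in stroma, was named after its values were seen and had 131 and 190.5 CPM in the knockout libraries, against 327 and 149 CPM in the control libraries.

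Other tissues were present in each library in amounts that did not follow the muscle genes alike. Summed over 8 markers, endometrial stroma stood at 6271 and 7533 CPM in the knockouts, against 10378 and 5448 CPM in the controls, so control 1 was again above control 2. The collagen genes Col1a1 and Col3a1 carried most of that gap. The other 6 markers summed to 2745 and 3047 CPM in the knockouts and 3185 and 2537 CPM in the controls, and Hoxa10 and Hoxa11 were higher in control 2 than in control 1. Mesothelium, the outer lining that comes with the muscle, stood at 154 and 235 CPM in the knockouts and 203 and 161 CPM in the controls, most of it Wt1. Without Wt1 the other 7 markers summed to 17.3 and 81.6 CPM in the knockouts and 71.6 and 44.9 CPM in the controls, lowest in knockout 1. Markers of vascular mural cells, the cells around blood vessels, stood at 853 and 629.9 CPM in the knockouts and 846 and 678 CPM in the controls. Epithelium stood at 1396 and 1677 CPM in the knockouts and 1352 and 1620.2 CPM in the controls, and leukocytes at 261 and 322 CPM in the knockouts and 343 and 522 CPM in the controls.

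The summed mural cell markers differed 1.25-fold between control 1 and control 2, against 2.27-fold for the members. Rgs5 made up most of that sum, at 485 and 399 CPM in the controls. Kcnj8 had 47.7 and 17.6 CPM in controls 1 and 2, and Abcc9 had 53.7 and 29.9 CPM. Notch3 and Cspg4 were also higher in control 1, whereas Pdgfrb, Higd1b and Vtn were higher in control 2. Skeletal muscle markers stood at 74.1 and 147 CPM in the knockouts and 115 and 27.0 CPM in the controls, mostly Acta1, and 3 of the 10, the fast myosin genes Myh4 and Myh1 and the calcium buffer gene Pvalb, were at 0 counts in every library. Heart muscle markers stood at 21.9 and 86.2 CPM in the knockouts and 21.6 and 13.99 CPM in the controls. Not all of them stood out in knockout 2. The troponin gene Tnnt2 had 15.1 and 18.9 CPM in the knockouts and 16.4 and 4.16 CPM in the controls. Its relative Tnni3 had 5.68 and 5.74 CPM in the knockouts and 3.48 and 8.98 CPM in the controls, highest in control 2. Without these troponin genes the other 6 markers summed to 1.12 and 61.5 CPM in the knockouts and 1.70 and 0.855 CPM in the controls. Endothelium stood at 1009 and 744 CPM in the knockouts and 932 and 893 CPM in the controls. Markers listed for interstitial cells of Cajal summed to 642 and 632 CPM in the knockouts and 821 and 570.3 CPM in the controls. Most of this sum was Pdgfra, which is also among the stroma markers, and Gja1, which is also transcribed in stroma, so it does not measure Cajal cells alone. Adipocyte markers summed to 32.2 and 75.3 CPM in the knockouts and 33.5 and 54.7 CPM in the controls. Of this, Lpl alone gave 31.6 and 35.1 CPM in the knockouts and 32.2 and 47.6 CPM in the controls. Adipoq had counts of 0 and 145 in the knockouts and 0 and 32 in the controls. Cidec had counts of 0 and 126 in the knockouts and 0 and 17 in the controls. Markers of Schwann cells and nerve summed to 17.5 and 10.8 CPM in the knockouts and 17.2 and 28.6 CPM in the controls. The part of tissue composition in the differences above was not tested.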

How the data were processed

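Per the submitters' processing notes, the tools used were Trimmomatic, STAR and featureCounts with the mouse genome GRCm39. Their versions and settings, the annotation and the strand handling are not stated. The authors deposited raw counts for 57186 genes and, for the 19991 genes with a total count of at least 51, TPM computed from counts and gene length. Every column was matched to its library by name. Every pair of libraries differed well beyond counting noise (chi-square over its degrees of freedom at least 45.3).

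The main test was edgeR 4.0.16 (R 4.3.3), quasi-likelihood, modelling group alone, after TMM scaling and a filterByExpr filter (minimum count 10, total 15) that kept 20950 genes. P-values were adjusted by Benjamini-Hochberg over all of them, with a threshold of 0.05, and measure only the spread between these libraries, which may be technical. The procedure was tested on simulated data. Members and lists were chosen with earlier results of these data known. Values in every library are given for the leading 2 genes of each role, all channel, store, receptor and transcription genes, and those with the smallest p or largest differences, and others were added after their values were seen. Marker lists are given as sums. Alternatives were other scaling factors and filters, DESeq2 1.42.0, limma 3.58.1 on counts and on log2(TPM + pseudocount), a replicate block and leaving out each library. Member levels relative to the contractile core carry no test.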

Additional observations from a re-analysis of the deposited data

How the results depend on the processing

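No member was called under any of the 15 alternatives, while the genes called over the whole table, 1 in the main test, were 90 with DESeq2, 54 with no low-count filter, 3 and 6 on log2(TPM + 1) and log2(TPM + 0.1), 0 with limma-voom and between 16 and 49 with 1 library left out. The median over members was between 0.45 and 0.58 with other scalings, filters, tools and values. With 1 library left out it ran from 0.094 to 1.13 and the ratio of summed levels from 1.04 to 2.37. The sign of the log2 fold change turned with 1 library left out for 18 members, 13 of them without control 2, 9 without knockout 2, 3 without control 1 and 2 without knockout 1, and their ranges were Myh11 −0.033 to 1.73, Myl9 −0.18 to 1.34, Acta2 −0.068 to 1.94, Actg2 −0.17 to 2.30, Cnn1 −0.19 to 1.78, Cnn2 −0.061 to 0.82, Cald1 −0.13 to 0.84, Synm −0.53 to 1.48, Flna −0.075 to 1.13, Csrp1 −0.20 to 1.58, Itga8 −0.50 to 0.93, Sgca −0.20 to 0.77, Hspb7 −0.11 to 1.22, Prkg1 −0.33 to 0.29, Hspb6 −0.49 to 0.98, Myocd −0.16 to 1.13, Srf −0.046 to 0.27 and Chrm2 −1.02 to 1.56. Chrm2 also turned to 0.17 with limma-voom and 0.027 on log2(TPM + 0.1), and the cause was not tested. A library left alone in its group was assumed to vary like the other group.

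The replicate block, which treats libraries of the same number as a pair, called 0 members and 32 genes in all, with a median over members of 0.58 and Chrm2 at 0.13. The deviations of same-numbered libraries were negatively correlated over genes (r = −0.44, across genes, which are not independent replicates), and the labels do not say that a number marks a shared source, so the numbers were not taken to pair libraries. With the pairing crossed, added after seeing the data, 0 members and 37 genes were called, while 23 members had an unadjusted p under 0.05 and the lowest adjusted p of a member was 0.181, for Pgm5.

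Depth limits Chrm2 and Sgca most, the members with the fewest counts.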

Other observations

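Knockout 2 held RNA of several heart muscle genes at far higher counts than the other libraries. Myh6 had counts of 6 and 1015 in the knockouts and 12 and 11 in the controls, and Mybpc3, heart myosin-binding protein C, 4 and 188 in the knockouts and 3 and 1 in the controls. Myl2, the ventricular light chain, had counts of 3 and 109 in the knockouts and 4 and 1 in the controls, and Nppa, the atrial natriuretic peptide gene, 14 and 80 in the knockouts and 17 and 13 in the controls. The heart actin gene Actc1 had 0.272 and 11.8 CPM in the knockout libraries, against 0.576 and 0.0855 CPM in the control libraries. Myl7, the atrial light chain, was near 0 in every library, with counts of 1 and 4 in the knockouts and 3 and 1 in the controls. The adipocyte gene Cfd, which encodes the complement protease adipsin, had 0.0302 and 18.1 CPM in the knockout libraries, against 0.144 and 2.42 CPM in the control libraries. Cfd too was highest in knockout 2, the library with the most contractile RNA, and these genes were named after their values were seen.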
